A study of Mus musculus with 14 samples.

Results

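The renin-angiotensin genes described here are Agt, Ren1, Ace, Enpep, Lnpep, Agtr1a, Agtr2, Mas1 and Atp6ap2. They were taken by symbol through their Ensembl IDs, and all 9 stand among the 33459 gene IDs of the count table, each on 1 ID. The genes were chosen by name, with their CPM in the 4 groups and their knockout effects in gWAT and heart already in view. Their values are therefore given as a description, with the statistics of fits over the whole table, and nothing is supported by them.

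The data are mRNA sequencing of 2 tissues of C57BL/6 mice aged 21 weeks, all of which had been on a high-fat diet for 8 weeks. Wild-type (WT) mice were compared with FHL2-/- mice (KO), which lack the LIM-domain protein Fhl2. Heart was sequenced in 4 WT and 4 KO libraries, numbered 1 to 4, and gonadal white adipose tissue (gWAT) in 3 WT and 3 KO libraries, numbered 1, 3 and 4. No group ate a control diet, and how the Fhl2 allele was made is not given in the sources used here. No label ties each library to an animal of its own, so p-values measure the spread between these libraries only.

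In the renin-angiotensin system, angiotensinogen is cut by renin to angiotensin I, and angiotensin-converting enzyme (ACE) turns this into angiotensin II. Angiotensin II raises blood pressure, sodium retention and tissue remodelling through its type 1 receptor, and aminopeptidases shorten it to peptides with receptors of their own. Adipocytes make angiotensinogen beside the liver, which is the main source of the circulating protein. The heart is known as a target tissue of the system and expresses ACE and the type 1 receptor.

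Heart libraries held between 10835092 and 13272412 counts in total, and gWAT libraries between 15105019 and 16040188. Levels are given as CPM, that is counts scaled for library size, with TMM scaling (trimmed mean of M values) unless stated otherwise. A floor of 3 counts is 0.226 to 0.277 CPM in heart and 0.187 to 0.199 CPM in gWAT, and covers counting error only. Fhl2 was at 1029 to 1394 CPM in WT hearts and 28.5 to 37.8 CPM in KO hearts, and at 4.34 to 6.24 CPM in WT gWAT and 0.257 to 0.461 CPM in KO gWAT. The 6 cardiomyocyte markers summed to 25110 CPM or more in every heart library, and the 11 white adipocyte markers to 27690 CPM or more in every gWAT library. Heart numbers 1 and 2 stood apart from 3 and 4 in both genotypes. Their 6 atrial markers summed to 3948 and 3248 CPM in WT and 4220 and 4630 CPM in KO, against 92.5 and 130.2 CPM in WT and 561.7 and 922.5 CPM in KO for numbers 3 and 4. Among the WT gWAT libraries, number 1 lay nearest to the KO libraries in macrophage markers: the 8 markers of lipid-associated macrophages summed to 1389 CPM in it, to 6426 and 4556 CPM in numbers 3 and 4, and to 684.5 to 783.3 CPM in KO.

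The promoters of Agt and Atp6ap2 are shown because these were the members with the highest and the lowest knockout effect in gWAT. Each run is the 250 bases before the RefSeq start on GRCm38.p6, read 5′ to 3′ on the gene's strand, and capitals mark TATAAA, the core of a TATA box, searched on both strands. The first lies at chr8:124569707-124569956 on the minus strand and the second at chrX:12587509-12587758 on the plus strand.
Agt: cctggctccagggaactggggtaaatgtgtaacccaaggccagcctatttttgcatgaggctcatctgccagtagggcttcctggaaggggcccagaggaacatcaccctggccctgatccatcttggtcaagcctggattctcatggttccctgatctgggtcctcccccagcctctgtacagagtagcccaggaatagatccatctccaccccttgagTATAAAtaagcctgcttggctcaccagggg
Atp6ap2: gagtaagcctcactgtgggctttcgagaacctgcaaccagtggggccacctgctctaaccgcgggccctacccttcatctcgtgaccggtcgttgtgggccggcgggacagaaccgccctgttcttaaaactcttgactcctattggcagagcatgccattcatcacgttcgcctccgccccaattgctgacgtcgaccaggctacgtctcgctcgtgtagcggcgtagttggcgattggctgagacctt
The Agt window holds 1 TATAAA, 30 bases before the start, and 0 CpG dinucleotides. The Atp6ap2 window holds no TATAAA and 20 CpG. Of 32851 RefSeq windows of this length, 12.4% hold TATAAA on either strand, and the median window has 6 CpG. An entry was found for 8 of the 9 members. Other members had other combinations. Lnpep, at a log2 fold change of 0.56 in gWAT, had no TATAAA and 25 CpG. Enpep (0.06) had 1 TATAAA and 6 CpG, and an Ace window (Ace at 0.17) had 1 TATAAA and 19 CpG, both matches on the opposite strand. A match of letters is a description of the window, and a link with the knockout effect was not tested.

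Only 6 of the 9 members had enough reads to be tested: Agt, Ace, Enpep, Lnpep, Agtr1a and Atp6ap2. Agtr2, Ren1 and Mas1 were under the filter on low counts in every comparison. To compare genes with each other, counts were divided by exon length and scaled to a common library total (TPM). In WT gWAT the order was Atp6ap2 at 119.5 ± 18.5 TPM (SD, n = 3), Enpep at 85.7 ± 4.99, Ace at 70.7 ± 16.7, Agt at 68.7 ± 11.3, Lnpep at 53.2 ± 2.81 and Agtr1a at 14.4 ± 3.48 TPM. Enpep, Ace and Agt overlapped as neighbours in this order, and the other steps did not. In KO gWAT, Agt led with 216.3 ± 14.3 TPM (SD, n = 3), 2.44 times the next gene, Atp6ap2, and without overlap with it. Atp6ap2 (88.6 ± 12.4 TPM), Enpep (86.1 ± 13.2), Ace (75.8 ± 6.54) and Lnpep (75.7 ± 15.8) followed, each overlapping its neighbour, and Agtr1a came after them at 15.96 ± 2.51 TPM. The place of Agt in gWAT thus moved from the fourth of the members in WT to the first in KO.

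In WT heart the order was Ace at 33.7 ± 6.72 TPM (SD, n = 4) and Lnpep at 31.4 ± 2.97, which overlapped, then Atp6ap2 at 17.3 ± 3.50 and Agtr1a at 14.9 ± 2.02, which overlapped too. Enpep at 6.46 ± 1.61 TPM, Agt at 3.20 ± 1.13 and Mas1 at 0.371 ± 0.177 came after them without overlap. KO heart gave Lnpep at 33.9 ± 6.03 TPM (SD, n = 4), Ace at 31.2 ± 7.02, Atp6ap2 at 17.8 ± 2.14, Agtr1a at 17.3 ± 0.703, Enpep at 6.63 ± 1.21, Agt at 3.75 ± 0.577 and Mas1 at 0.455 ± 0.197 TPM. Ace and Lnpep changed places between the genotypes, but their libraries overlapped in both.

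**Figure D1:**
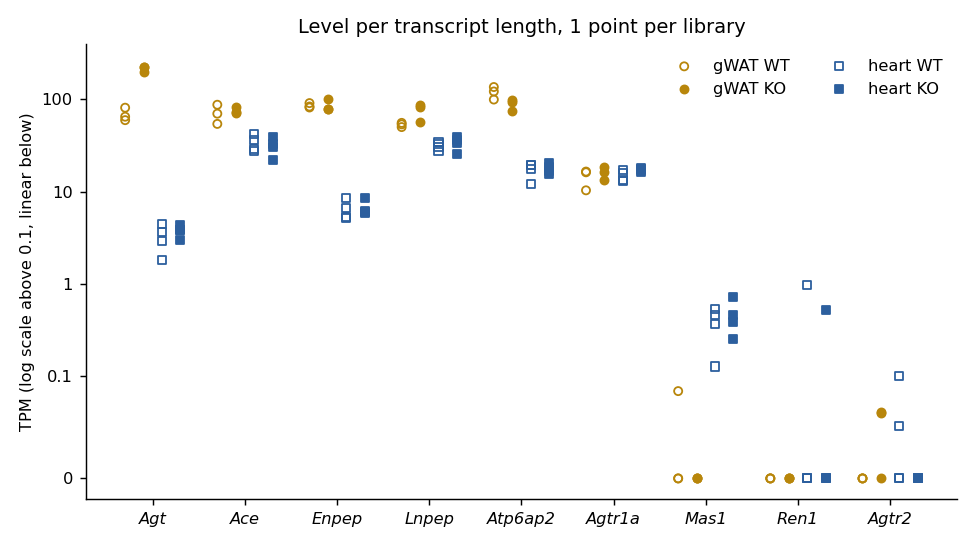
Level per transcript length of the 9 members; the y axis is TPM (logarithmic above 0.1, linear below), the x axis the gene, and each point 1 library (3 per gWAT group, 4 per heart group). Agt in KO gWAT sits at 199.8 to 224.9 TPM, above every other member, and Mas1, Ren1 and Agtr2 stay below 1 TPM.

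Agt encodes angiotensinogen, the substrate from which all angiotensins are cut, and stands on the minus strand of chromosome 8 (124556534 to 124569706, GRCm38). It was at 48.3, 31.5 and 35.6 CPM in WT gWAT (numbers 1, 3 and 4) and at 135.2, 113.6 and 127.6 CPM in KO gWAT. All KO libraries lay above all WT libraries, and WT number 1 was the highest of its group. Its level was 3.26-fold higher in KO gWAT, a log2 fold change of 1.71 ± 0.17 (SE; 95% interval 1.33 to 2.09; edgeR quasi-likelihood test, Benjamini-Hochberg adjusted p = 0.0154 over 15200 genes). In heart, Agt was at 3.90, 3.05, 2.86 and 1.86 CPM in WT and 3.74, 3.16, 2.69 and 3.61 CPM in KO, from 22 to 53 reads per library. The heart groups overlapped, and the log2 fold change was 0.17 ± 0.23 (95% interval -0.34 to 0.68; edgeR adjusted p = 1). The knockout effect was larger in gWAT than in heart by 1.53 ± 0.28 on the log2 scale (95% interval 0.92 to 2.14; edgeR interaction contrast over 14 libraries, adjusted p = 0.0269).

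The Agt difference in gWAT ranged from 1.58 to 1.90 (log2) when each library was left out in turn, and the edgeR call did not hold in every case. The adjusted p was 0.0924 without WT number 4, 0.0813 without KO number 1, 0.0729 without KO number 3 and 0.0928 without KO number 4, and it was 5.97e-05 without WT number 1 and 0.018 without WT number 3. With only 2 libraries left in a group, the call over all genes was thus lost in 4 of 6 cases. The tissue difference kept a log2 value of 1.35 to 1.75, and its adjusted p was between 0.0508 and 0.0862 in 10 of the 14 cases that left out a library: heart WT 1, 2 and 3, heart KO 2 and 3, gWAT WT 3 and 4, and all 3 gWAT KO libraries.

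White adipocyte markers were measured beside Agt, since adipocytes express it. Their summed level was 39450, 27690 and 32910 CPM in WT gWAT and 40870, 37310 and 40010 CPM in KO gWAT. Of the 11 markers 2 were called higher, beside 2.01% of all genes, and 0 lower, with a median log2 fold change of 0.37. They did not move alike. Cfd was at 504.9, 212.4 and 265.8 CPM in WT and 1767, 1336 and 1507 CPM in KO. Lep was at 6442, 3589 and 5365 CPM in WT and 2823, 4348 and 4077 CPM in KO. The sum is weighted to its highest genes (Fabp4 was at 14590 CPM in WT number 1), so the ratios below are not levels per adipocyte. Per 1000 CPM of these markers, Agt was at 1.22, 1.14 and 1.08 CPM in WT and 3.31, 3.04 and 3.19 CPM in KO, a ratio of 2.77 between the group means, and the groups did not overlap. Against Adipoq (adiponectin) alone the ratio was 1.9, and against Plin1 (perilipin 1, a coat protein of lipid droplets) alone it was 2.52. Mesothelial markers, genes of the lining of the fat pad, were also higher in KO gWAT. The 6 summed to 114.9 to 244.5 CPM in WT gWAT and 310.8 to 517.2 CPM in KO gWAT without overlap, as 27.8% of single genes did. Of the 6, 3 were called higher, beside 2.01% of all genes, with a median log2 fold change of 1.14. KO number 3 had the highest mesothelial sum (517.2 CPM) and the lowest Agt among the KO libraries (113.6 CPM). The part of mesothelial cells in the Agt difference was not tested. In bulk tissue, fewer cells of a type and less RNA per cell cannot be told apart.

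**Figure D2:**
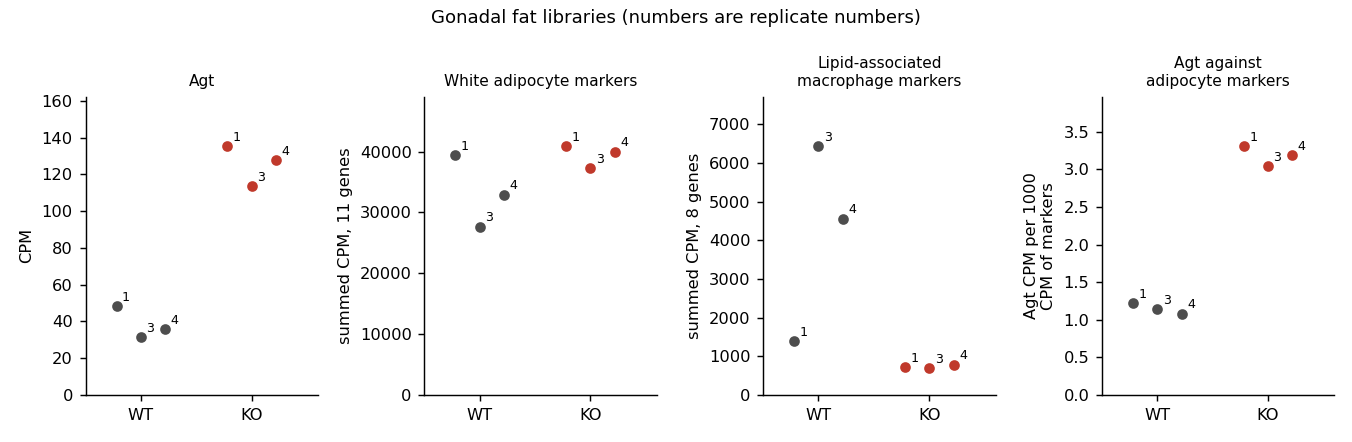
Agt and marker levels in the 6 gWAT libraries; the panels show Agt (CPM), summed white adipocyte markers (CPM, 11 genes), summed lipid-associated macrophage markers (CPM, 8 genes) and Agt per 1000 CPM of adipocyte markers, with 1 point per library labelled by its number. WT number 1 sits with the KO libraries in adipocyte markers (39450 CPM) and with the other WT libraries in Agt per marker (1.22 against 1.14 and 1.08).

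Hepatocyte markers, measured because liver is the main source of angiotensinogen, were low in gWAT, and their part in the Agt values was not tested. The 6 genes summed to 37.6 to 50.9 CPM in WT gWAT and 34.4 to 38.7 CPM in KO gWAT, and 0 of the 5 tested passed. In heart they were at 36.9 to 59.8 CPM in WT and 35.3 to 188.2 CPM in KO.

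Among the enzymes, Ren1 encodes renin, which starts the cascade and comes mainly from the kidney. Ren1 had 10 reads in WT heart number 1 and 5 reads in KO heart number 1, or 0.735 and 0.390 CPM, and 0 reads in the other 12 libraries. The 2 libraries with reads thus carry the same number in both genotypes. Both are atrium-rich, as are WT and KO number 2, which had 0 reads, and a link with atrial content was not tested. In gWAT a count of 0 in all 6 libraries allows up to 0.199 CPM per library. Of the 4 kidney tubule markers in the table, Slc12a1 and Kap were at 0 in every library. The sum of all 4 was at most 0.962 CPM, in KO gWAT number 3. Slc34a1 was at 0 in every heart too, so the heart sum is that of Aqp2 alone. Among the hearts it was highest in WT number 1 (0.22 CPM) and KO number 1 (0.156 CPM), and at most 0.0867 CPM in the others. These values rest on very few reads, and a link with Ren1 was not tested.

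Ace encodes angiotensin-converting enzyme, a peptidase on the endothelial surface. It was at 90.0, 129.6 and 107.4 CPM in WT gWAT and 122.7, 113.4 and 132.1 CPM in KO gWAT, and the groups overlapped. The log2 fold change was 0.17 ± 0.14 (95% interval -0.16 to 0.50; edgeR adjusted p = 0.523). In heart, Ace was at 102.1, 85.7, 79.3 and 79.6 CPM in WT and 78.8, 90.5, 77.8 and 58.1 CPM in KO. KO number 4 was the lowest, and the log2 fold change was -0.18 ± 0.13 (95% interval -0.47 to 0.10; edgeR adjusted p = 1). Of the 9 endothelial markers, 0 passed in either tissue, with a median log2 fold change of 0.06 in gWAT and -0.03 in heart. Ace shares 295 exon bases with an antisense gene, Gm11651, which had 11 reads in all libraries together. Whether counting used strand is not given in the sources used here.

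Enpep encodes aminopeptidase A, which cuts angiotensin II to angiotensin III. Its level was 134.7, 110.3 and 111.5 CPM in WT gWAT and 117.6, 111.1 and 143.1 CPM in KO gWAT, fully overlapping. The log2 fold change in gWAT was 0.06 ± 0.13 (95% interval -0.25 to 0.37; edgeR adjusted p = 0.83). In heart it was at 14.6, 18.2, 12.6 and 13.7 CPM in WT and 13.3, 17.4, 13.5 and 13.7 CPM in KO, so number 2 was highest in both genotypes. The heart difference was -0.03 ± 0.13 (log2; 95% interval -0.33 to 0.27; edgeR adjusted p = 1).

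Lnpep encodes the insulin-regulated aminopeptidase, which binds angiotensin IV and travels with the glucose transporter Glut4 in insulin-responsive vesicles. It was at 237.8, 198.4 and 228.2 CPM in WT gWAT and 260.3, 349.9 and 369.7 CPM in KO gWAT. The groups did not overlap, but KO number 1 lay near the highest WT library. The log2 fold change was 0.56 ± 0.15 (95% interval 0.21 to 0.92), which did not pass over all genes (edgeR adjusted p = 0.0733). Without WT number 1 it was 0.62 with an edgeR adjusted p of 0.0301, and leaving out any of the 5 others gave 0.0976 to 0.232. DESeq2 called it at an adjusted p of 0.0145, and limma-voom did not, at 0.0892. Per 1000 CPM of white adipocyte markers Lnpep was at 6.71 ± 0.60 CPM (SD, n = 3) in WT and 8.33 ± 1.7 CPM in KO, and there the groups overlapped. In heart its level was 226.6, 206.5, 222.6 and 215.3 CPM in WT and 163.6, 244.6, 231.7 and 256.1 CPM in KO, so the KO libraries lay on both sides of the WT libraries. The heart difference was 0.04 ± 0.12 (log2; 95% interval -0.23 to 0.31; edgeR adjusted p = 1), and the difference between tissues, 0.51 ± 0.21, did not pass (edgeR adjusted p = 0.254).

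**Figure D3:**
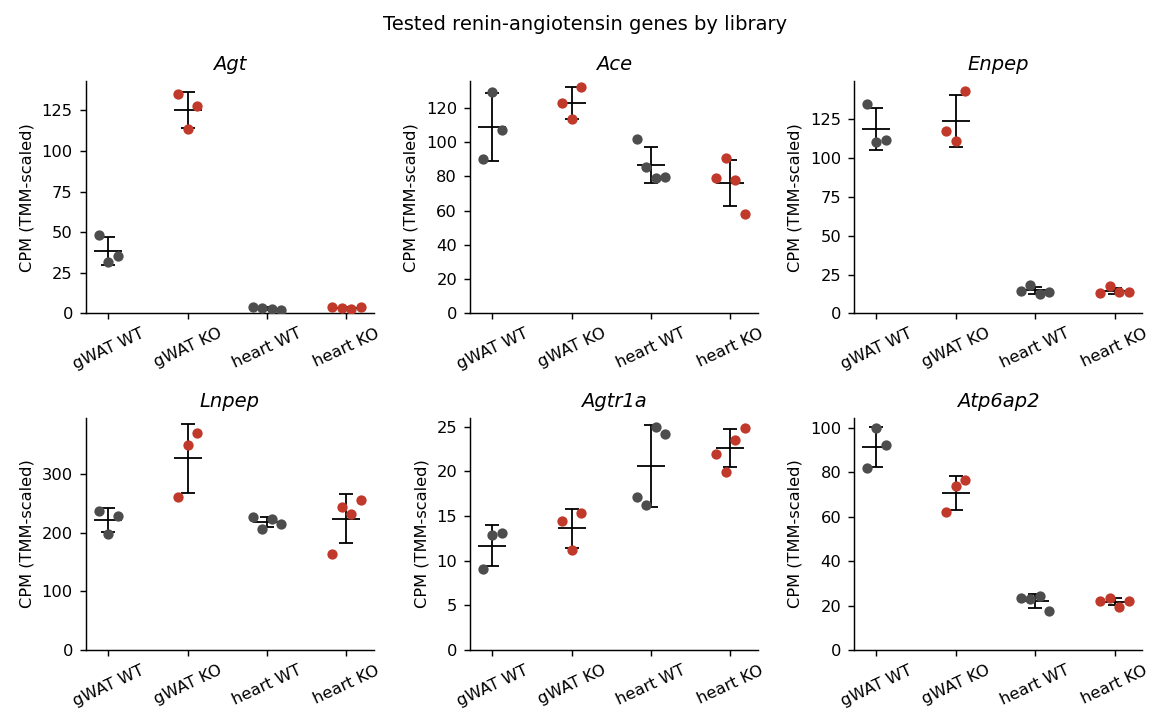
TMM-scaled CPM (y axis, from 0) of the 6 tested members in gWAT and heart, WT in grey and KO in red; points are libraries, and bars give the mean and SD (n = 3 per gWAT group, n = 4 per heart group). Agt, Lnpep and Atp6ap2 have gWAT groups that do not overlap, while all heart groups overlap.

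Turning to the receptors, Agtr1a encodes the type 1a angiotensin II receptor. In gWAT it was at 9.03, 12.9 and 13.1 CPM in WT and 14.4, 11.2 and 15.3 CPM in KO. These groups overlapped, with a log2 fold change of 0.22 ± 0.19 (95% interval -0.21 to 0.66; edgeR adjusted p = 0.526). In heart it was at 17.1, 16.2, 24.96 and 24.1 CPM in WT and 21.99, 19.9, 23.5 and 24.9 CPM in KO. Numbers 1 and 2, the atrium-rich libraries, were the 2 lowest in both genotypes. The heart difference over all libraries was 0.14 ± 0.15 (log2; edgeR adjusted p = 1); it was 0.34 within numbers 1 and 2, and -0.02 within numbers 3 and 4. Its paralog Agtr1b had at most 3 reads in any library, and how reads shared by the pair were counted is not given in the sources used here.

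Agtr2, the type 2 receptor, had 0, 1, 2 and 0 reads in WT heart, none in KO heart or WT gWAT, and 0, 1 and 1 reads in KO gWAT, all under the floor of 3. Mas1, a receptor of shortened angiotensin peptides, had 6, 7, 2 and 9 reads in WT heart and 11, 6, 4 and 6 reads in KO heart, or 0.478 ± 0.244 and 0.551 ± 0.225 CPM (SD, n = 4). In gWAT it had 1 read in WT number 3 and 0 elsewhere. The reads of Mas1 were thus found almost entirely in heart. Mas1 overlaps the antisense gene Airn, with 1842 reads in all libraries and 0 shared exon bases, so reads from introns of either gene could not be told apart without strand.

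Atp6ap2 encodes the (pro)renin receptor, which is also an accessory subunit of the vacuolar proton pump that acidifies lysosomes. Its level was 81.9, 99.9 and 92.5 CPM in WT gWAT and 62.1, 73.9 and 76.5 CPM in KO gWAT. The groups did not overlap. The log2 fold change was -0.37 ± 0.12 (95% interval -0.65 to -0.09), which did not pass over all genes (edgeR adjusted p = 0.116), and without WT number 1 it was -0.44 with an adjusted p of 0.0322. Leaving out any of the 5 others gave edgeR adjusted p-values of 0.195 to 0.325, and neither DESeq2 (0.0857) nor limma-voom (0.127) called it. In heart it was at 23.4, 23.1, 24.2 and 17.4 CPM in WT and 22.1, 23.4, 19.5 and 21.9 CPM in KO, with WT number 4 lowest. The heart difference was -0.02 ± 0.11 (log2; 95% interval -0.27 to 0.23; edgeR adjusted p = 1).

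Counted together, 1 of the 6 tested members was called in gWAT (edgeR adjusted p under 0.05), where 5.49% of all 15200 tested genes were called in either direction. The groups of 3 members did not overlap in gWAT, against 27.8% of all genes. The median log2 fold change of the 6 was 0.20, beside 0 over all genes. In heart 0 of 6 were called, where 0.00706% of 14159 genes were called, and 0 had an unadjusted p under 0.05. No member had heart groups that did not overlap, against 2.41% of all genes. DESeq2 and limma-voom also called 0 in heart. Fitting the heart libraries with the number sets as a covariate, or within either set, called 0 members as well. The interaction contrast called 1 of 6, beside 1.15% of 16014 genes in either direction and 0.362% in the direction of Agt.

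**Figure D4:**
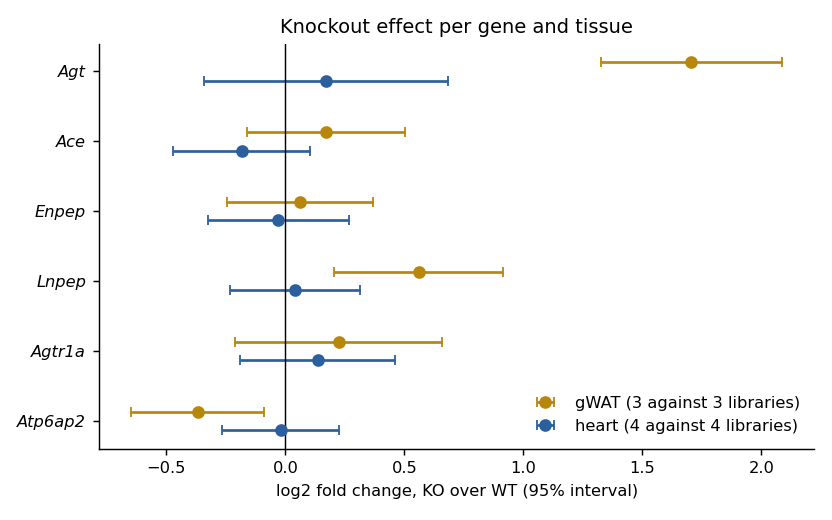
Knockout effect of the 6 tested members in gWAT (3 against 3 libraries) and heart (4 against 4); the x axis is the log2 fold change of KO over WT, points are edgeR estimates and bars 95% intervals. The interval of Agt in gWAT, 1.33 to 2.09, lies apart from its interval in heart, -0.34 to 0.68, and in heart all 6 intervals hold 0.

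Most members also differed in level between heart and gWAT. In WT, 5 of 6 were called between the tissues, where 69.4% of 15287 genes were called, and in KO 4 of 6, where 69.8% of 15245 genes were called. In WT these were 2 higher and 3 lower in heart, beside 33.3% and 36.1% of all genes, and in KO 1 higher and 3 lower, beside 35% and 34.8%. Agt was lower in heart than in gWAT by 3.18 ± 0.24 in WT and 4.70 ± 0.13 in KO (log2, edgeR). Enpep fell by 2.48 ± 0.14 in heart against gWAT in WT and by 2.55 ± 0.12 in KO, and Atp6ap2 by 1.52 ± 0.13 and 1.16 ± 0.10. Agtr1a had the highest log2 difference of heart over gWAT among the tested members, 1.35 ± 0.20 in WT and 1.28 ± 0.14 in KO. Lnpep was 0.51 ± 0.10 higher in heart in WT and differed by 0.01 ± 0.16 in KO. Ace was not called in either genotype, at 0.20 ± 0.14 in WT and -0.14 ± 0.13 in KO. In TPM, which carries no TMM factors, WT Lnpep was lower in heart (27.97 to 34.82) than in gWAT (50.19 to 55.75). WT Ace was lower in heart as well, at 33.7 ± 6.72 against 70.7 ± 16.7 TPM (SD). WT Agtr1a was at 14.9 ± 2.02 TPM in heart and 14.4 ± 3.48 TPM in gWAT, with overlap. The tissue differences of Lnpep, Ace and Agtr1a thus depended on the scaling. When no scaling factors were used, the median of all genes shifted to -0.61 in WT and -0.49 in KO. There Lnpep in WT was at -0.07 and lost its call (edgeR adjusted p = 0.524), and Ace in WT was at -0.38 without a call. In KO both genes became called as lower in heart, Lnpep at -0.50 (edgeR adjusted p = 0.0124) and Ace at -0.63 (edgeR adjusted p = 0.00278), so the members called were 4 in WT and 6 in KO, while Agt, Enpep, Atp6ap2 and Agtr1a kept their directions.

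Beyond the members, 72 further genes of the pathway were listed in 5 groups, of which 70 stand in the table. Of the 59 tested in gWAT, 2 were called higher and 11 lower in KO, where 2.01% and 3.48% of all genes were called higher and lower. Their median log2 fold change was -0.33 against 0 over all genes. Of the 58 tested in heart 0 were called by edgeR, and 4 had an unadjusted p under 0.05, where 3.2% of all genes did. DESeq2 and limma-voom also called 0 of them in heart. Among them were Agtrap (0.21), Sgk1 (-0.23) and Tgfb1 (-0.24), given as log2 fold changes.

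The 13 calls in gWAT depended on every library but WT number 1. Without WT number 1 there were 32 calls, which held all 13. Without WT number 3 there was 1 call, and without WT number 4 or any KO library there were 0. Macrophage markers moved with this group. Of the 8 lipid-associated macrophage markers 7 were called lower in KO gWAT (median log2 fold change -2.61), where 3.48% of all genes were. Of 7 general macrophage markers 4 were called lower. The latter summed to 1137 to 2725 CPM in WT and 870.1 to 1002 CPM in KO. None of the markers was at 0, and their part in the results below was not tested.

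The other angiotensin peptidases had 3 of 14 tested genes called lower and 0 higher, where 3.48% of all genes were called lower. Of their log2 fold changes 13 of 14 were negative (median -0.67, beside 0 over all genes). Anpep, aminopeptidase N, which shortens angiotensin III, was at 116.2, 443.1 and 282.4 CPM in WT gWAT and 71.3, 66.4 and 73.3 CPM in KO. Its log2 fold change was -1.996 ± 0.403 (edgeR adjusted p = 0.0342), and WT number 1 was the WT library nearest to KO. Aopep, aminopeptidase O, fell by 1.47 ± 0.31 on the log2 scale (edgeR adjusted p = 0.0371), and Ctsd, the lysosomal protease cathepsin D, by 0.85 ± 0.17 (edgeR adjusted p = 0.0327). Rnpep, aminopeptidase B, had a log2 fold change of -0.33 (edgeR adjusted p = 0.0758), Ctsa, cathepsin A, -0.83, and Cpa3, a carboxypeptidase of mast cells, -1.145. The 6 tested mast cell markers had a median of -0.89 in gWAT, with 0 called. They include Cpa3, Cma1 and Mcpt4 of this same list, so the median is not a separate measure. Of the other tested markers, Kit was at 8.89, 10.5 and 8.90 CPM in WT and 9.36, 7.18 and 12.7 CPM in KO. Hdc was at 2.55, 1.44 and 1.94 CPM in WT and 2.90, 2.37 and 1.99 CPM in KO. Tpsb2 was at 4.89, 12.3 and 9.50 CPM in WT and 4.09, 3.66 and 4.37 CPM in KO.

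Among receptor partners and related receptors, 2 of 15 tested genes were called lower, beside 3.48% of all genes, and 0 higher, with a median of 0.01. Rgs2, a regulator that shortens signalling by the G protein Gq downstream of the type 1 receptor, was at 29.0, 54.6 and 45.6 CPM in WT gWAT and 22.9, 18.7 and 14.8 CPM in KO. It fell by 1.20 ± 0.24 (log2, edgeR adjusted p = 0.0352). Gna12, a G protein alpha subunit, fell by 0.48 ± 0.11 (edgeR adjusted p = 0.0451). Aplnr, the apelin receptor, had a log2 fold change of -0.76 (edgeR adjusted p = 0.0558) and Igf2r, the mannose-6-phosphate receptor, -0.97 (edgeR adjusted p = 0.0871).

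In the mineralocorticoid axis, through which aldosterone acts on sodium transport, 1 of 6 tested genes was called higher, beside 2.01% of all genes, and 0 lower. Nr3c2, the mineralocorticoid receptor, was at 8.69, 8.37 and 9.93 CPM in WT gWAT and 12.9, 16.4 and 15.2 CPM in KO. It was 1.65-fold higher in KO (log2 0.72 ± 0.15; edgeR adjusted p = 0.0354), and the groups did not overlap. Hsd11b1, which regenerates active glucocorticoid in fat, had a log2 fold change of 0.47 and Scnn1a, a sodium channel subunit, 0.65, and neither passed (edgeR adjusted p = 0.187 and 0.193). Sgk1, a kinase induced by the receptor, was at -0.47 (edgeR adjusted p = 0.305). Cyp11b1 and Cyp11b2 were not found in the count table by symbol or synonym, so they could not be tested.

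Of the 10 genes known to respond to angiotensin II, 1 was called higher and 1 lower in gWAT, with a median of -0.41. Over all genes 2.01% were called higher and 3.48% lower. Vegfa, an angiogenic growth factor, was at 129.5, 105.8 and 101.8 CPM in WT and 172.2, 201.8 and 265.0 CPM in KO, 1.9-fold higher (log2 0.92 ± 0.17; edgeR adjusted p = 0.0299). Cyba, a membrane subunit of the phagocyte NADPH oxidase, was at 67.5, 193.9 and 143.9 CPM in WT and 50.03, 43.2 and 46.1 CPM in KO, lower by a log2 fold change of -1.54 ± 0.32 (edgeR adjusted p = 0.0371). Tgfb1, a growth factor of fibrosis, was at -0.97 and Cybb, the partner of Cyba, at -1.06, and neither passed (edgeR adjusted p = 0.0517 and 0.0723).

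The proton pump partners of Atp6ap2 had 5 of 14 tested genes called lower and 0 higher in gWAT, where 3.48% of all genes were called lower. The groups did not overlap for 12 of the 14, against 27.8% of all genes. All 14 log2 fold changes were negative, with a median of -0.35, beside -0.37 for Atp6ap2 itself. Atp6v0a1, a subunit of the membrane sector, was at 371.1, 563.6 and 511.4 CPM in WT and 232.6, 233.4 and 228.8 CPM in KO, and fell by 1.06 ± 0.16 (log2; edgeR adjusted p = 0.0236). Atp6v1b2 fell by 1.03 ± 0.17 (edgeR adjusted p = 0.0258) and Atp6v1a by 0.90 ± 0.16 (edgeR adjusted p = 0.0285), both subunits of the part that splits ATP. Atp6v1c1 fell by 0.77 ± 0.17 (edgeR adjusted p = 0.0387) and Atp6v0b by 0.58 ± 0.12 (edgeR adjusted p = 0.0383).

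**Figure D5:**
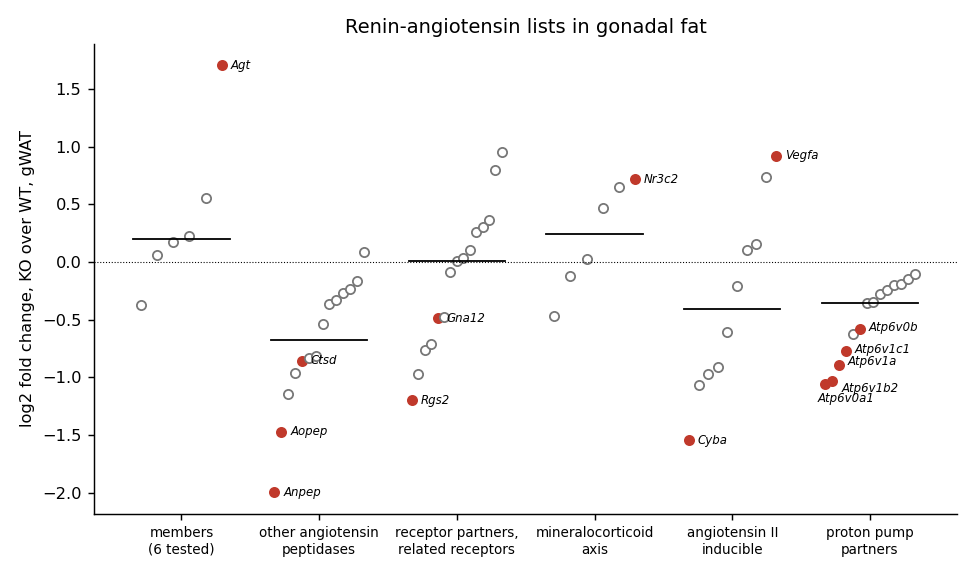
Knockout effect in gWAT of the members and of the 5 other lists; the y axis is the edgeR log2 fold change of KO over WT, each point is a tested gene, filled points passed an adjusted p of 0.05, and lines are list medians. Agt stands highest at 1.71, and all 14 proton pump genes lie below 0.

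The difference between tissues was called for 6 of the 60 further genes tested in the interaction contrast, all with a lower value in gWAT, where 0.787% of all genes were called lower. They were Anpep, Ctsd, Atp6v0a1, Atp6v1a, Atp6v1b2 and Atp6v1c1. The count was 19 without gWAT WT number 1, and 0 to 3 without any other library.

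The genes whose level ran most like each member over the 14 libraries were ranked by Pearson correlation of log2(CPM + 0.5) among 14377 genes with a mean above 1 CPM. For Agt they were Mogat1 (0.995), an acyltransferase of lipid synthesis, Orm3 (0.992), an acute-phase protein gene, and Agmo (0.992), which cleaves ether lipids. Enpep ran with Dram1 (0.998), Igf1 (0.997) and Ap2a2 (0.997), and Atp6ap2 with Asah1 (0.994), the lysosomal acid ceramidase, Pqbp1 (0.993) and Mfsd1 (0.993). Likeness was lower for Ace (Notch1 at 0.947, Ahi1 at 0.937, Nfatc1 at 0.929), Agtr1a (Maf1 at 0.950, Smyd2 at 0.947, Etl4 at 0.946) and Lnpep (Zfp266 at 0.944, Ccdc186 at 0.935, Abca8b at 0.924). Over the 6 gWAT libraries Agt ran most like Ces1d (0.996), a lipid-droplet carboxylesterase, Mycl (0.995) and Pck1 (0.995), which makes phosphoenolpyruvate for glycerol synthesis in fat. These points share tissue, genotype and library, so the values describe likeness of pattern only.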

How the data were processed

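mRNA of heart and gWAT was measured in 14 libraries made from flash-frozen tissue with Trizol and the Kapa mRNA Hyperprep kit, per the labels' protocols. The authors deposited raw read counts per Ensembl gene, 1 column per library, with no normalization. Tools listed in the submitters' processing notes, in no stated role, are HISAT2 2.1.0, HTSeq 0.11.0, Trimmomatic 0.32, Picard, FastQC and limma, with the build mm10. Annotation release, strand setting and filters: not given in the sources used here. Of 33459 IDs, 33406 carry a symbol, and the others hold 0.0132% of the reads. There were 0 columns without a sample. Positions and exon lengths came from GENCODE on GRCm38, promoters from RefSeq.

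The members and all lists were chosen with earlier results of these data known. The text names all members, every gene of the other pathway lists past the threshold in either tissue, up to 4 per list with the smallest p, and the 3 genes most like each member. Some genes that this rule takes are not reported here.

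In R 4.3.3, each comparison had its own filterByExpr filter, TMM factors and quasi-likelihood F test in edgeR 4.0.16 (Benjamini-Hochberg over all tested genes, threshold 0.05), without covariates. SE is the log2 fold change over the square root of F. CPM use each tissue's own factors. The biological coefficient of variation was 0.168 in gWAT and 0.149 in heart. Scripts were tested on simulated data. No 2 of the 18 library pairs within groups were duplicates (chi-square per degree of freedom 3.53 or more). Alternatives were RLE scaling, no scaling factors, no filter beyond 1 count, a mean of 10 counts, DESeq2 1.42.0, limma-voom (limma 3.58.1), the replicate number as a block, 1 fit of all libraries, number sets in heart and leaving out each library. Fits within the heart number sets, blocks across tissues and marker ratios were chosen after seeing the data. Plots used Python 3.11.15 and matplotlib 3.10.9.

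Pairing was checked by correlating deviations from group means. Equal numbers gave 0.258, 0.374, 0.361 and 0.278 in heart. Unequal numbers within 1 and 2 gave 0.465 and 0.172, and within 3 and 4 they gave 0.329 and 0.273. Pairs across these sets gave -0.447 to -0.172. The values thus follow the number sets and do not show pairing by single numbers. The labels give no pairing, and the main fits used none.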

Additional observations from a re-analysis of the deposited data

Results flagged for a closer look

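Each member's CPM in each heart group of 4 libraries was examined, and of these 17 sets 4 held a library far from the others by Dixon's criterion, which chance gives for about 1 set in 20 of continuous values. That rate does not apply to the 2 sets of Ren1, in which all libraries but 1 were at 0. Ren1, renin, was at 0.735 CPM in WT heart number 1 and at 0.390 CPM in KO heart number 1, with 0 reads in the other 6 hearts. Atp6ap2, the (pro)renin receptor, was low in WT heart number 4, at 17.4 CPM. Enpep, aminopeptidase A, was high in KO heart number 2, at 17.4 CPM.

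The knockout effect differed between the tissues, by the edgeR interaction contrast, for Agt (1.53 higher in gWAT on the log2 scale) and for 6 other pathway genes that were lower in gWAT. Their differences, gWAT minus heart on the log2 scale, were -2.07 for Anpep, -0.86 for Ctsd, -0.93 for Atp6v0a1, -0.82 for Atp6v1a, -1.04 for Atp6v1b2 and -0.75 for Atp6v1c1. Adjusted p-values from edgeR were 0.0269 for Agt and between 0.0218 and 0.0449 for the others.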

How the results depend on the processing

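The call of Agt in gWAT kept its direction in all 14 alternatives (log2 1.58 to 1.90, adjusted p 6.51e-16 to 0.0928) and passed in 9. Members called in gWAT, 1 by edgeR, came to 2 without a filter, with DESeq2 and in 1 fit of all libraries, and to 0 to 3 when a library was left out. Other pathway genes called in gWAT, 13 by edgeR, came to 22 without a filter, 24 with DESeq2, 26 in 1 fit of all libraries and 6 with limma-voom, and to 0 to 32 when a library was left out. With the replicate block, gWAT had 0 members and 0 other pathway genes called, and Agt had a log2 value of 1.72 with an adjusted p of 0.055. Equal gWAT numbers correlated at -0.114, -0.218 and 0.029, so they share only a number. With the block in heart 0 members were called, in the interaction contrast 1 was, and no other call of a member changed. In the interaction contrast, members called came to 0 with limma-voom and 0 to 1 when a library was left out. The 6 other pathway genes came to 13 without a filter, 15 with DESeq2, and 0 to 19 when a library was left out. The heart counts were 0 and the tissue counts within 1.5 times under every alternative run. Signs that turned are given next, and the cause was not tested. Without scaling factors, Enpep (0.015) and Atp6ap2 (0.025) turned in heart, Agtr1a (-0.023) in the interaction contrast, and, between tissues, Ace (-0.38) and Lnpep (-0.069, its call lost) in WT and Lnpep (-0.50, now called) in KO. Within heart numbers 1 and 2, Agt was -0.003 and Lnpep -0.082, and within 3 and 4 Agtr1a was -0.02 and Enpep 0.052. Lnpep between tissues in KO was -0.079 without a filter and -0.046 with the replicate block. With a library left out, ranges that crossed 0 were Enpep -0.048 to 0.161 in gWAT; Enpep -0.127 to 0.087, Atp6ap2 -0.117 to 0.033 and Lnpep -0.03 to 0.165 in heart; Agtr1a -0.046 to 0.219 and Enpep -0.029 to 0.208 in the interaction contrast; and Lnpep -0.15 to 0.119 between tissues in KO. Depth limits Ren1, Agtr2 and Mas1, which had at most 11 reads in a library.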
